A study of Mus musculus with 8 samples.

Results

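The genes followed here mark upper-layer projection neuron identity, and there are 9 of them: Cux1, Cux2, Pou3f2, Pou3f3, Lhx2, Rorb, Mef2c, Inhba and Lmo4. They were chosen by symbol from the table of read counts, and all 9 were found once each among its 21165 gene rows and all 9 were among the 12699 genes with enough counts to test. The counts come from poly-A RNA sequencing of whole cortices of 4 Nuak1 KO embryos and 4 WT embryos at E18.5. NUAK1 is a kinase of the AMPK-related family, and the KO is constitutive, so each cell type of the cortex carried it; mice of the study were kept on a C57Bl/6JRj background, and pups without the gene die at birth. The labels give 2 males and 2 females for KO, 1 male and 3 females for WT, and 3 litters that each hold both genotypes, while the series text speaks of 4. In the table a column is named by its genotype and a number alone, so libraries are called KO R1 to R4 and WT R1 to R4, and the labels tie none of them to a litter or a sex.

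The neocortex is built of layers of projection neurons that are born in sequence, the deep layers first and the upper layers last. Upper-layer neurons mostly send their axons to other cortical areas, many of them through the corpus callosum. A group of transcription factors marks and shapes these cells: the cut homeobox factors CUX1 and CUX2 act on dendrites and synapses, the POU factors POU3F2 and POU3F3 act in the production and migration of upper-layer neurons, the LIM homeodomain factor LHX2 acts in cortical patterning and progenitors, the nuclear receptor RORB marks layer 4 cells, and MEF2C is an activity-regulated factor of excitatory neurons. LMO4 is a LIM-only cofactor found in subsets of callosal and subcortical projection neurons, and Inhba encodes a subunit of activin A, a secreted ligand of the TGF-beta family. None of them is unique to upper-layer cells. In RNA from a whole cortex, fewer cells of a type and less RNA per cell cannot be told apart.

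Libraries held 9643711 to 27014858 counts. Nuak1 was at 11.1 to 20.5 normalized counts in KO and 877 to 1445 in WT, where a normalized count is a count scaled to the mean effective library size. Library KO R1 stood apart by its fibroblast genes. There the 10 meningeal fibroblast markers, 5 of them tested, summed to 10374 normalized counts, against 282 to 512 in the other 7 libraries. Genotypes were compared with the quasi-likelihood test of edgeR, and p-values were adjusted by Benjamini-Hochberg over all 12699 genes. The thresholds of the study, an absolute log2 fold change over 0.25 with an unadjusted p under 0.05, are used below as the call; 540 genes (4.25%) met them, 311 (2.45%) as higher in KO. The study's own list of changed genes was drawn from these libraries and includes members of the lists below, so their direction is not independent evidence.

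Inhba, Mef2c and Cux1 were called higher in KO, and no member was called lower. Thus 3 of 9 members met the thresholds, beside 2.45% of all genes. Their log2 fold changes were 1.02, 0.36 and 0.28. Cux2 also had an unadjusted p under 0.05 with a smaller difference, so 4 of 9 members lay under that p as higher and 0 as lower, beside 4.51% and 3.18% of all genes. The remaining members did not pass. The point estimate was positive for 8 of 9 members, against 45.6% of all genes, and the median log2 fold change was 0.27 for the members and -0.01 for all genes. The members were chosen with earlier results of these data known, so these shares and medians are descriptions and no test of enrichment. After adjustment, 0 members stayed under 0.05 with edgeR, which called 0.0709% of all genes, and 1, Inhba, with DESeq2, which called 0.638% of the genes to which it gave an adjusted p. Without KO R1, the library with the fibroblast genes, 5 members were called (Inhba, Mef2c, Cux1, Cux2 and Rorb), beside 1.81% of all genes as higher in that fit, and the median was 0.26. Without KO R3, WT R2 or WT R4, 2 members were called (Inhba and Mef2c), beside 2.39%, 2.32% and 4.13% of all genes in that order.

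**Figure D1:**
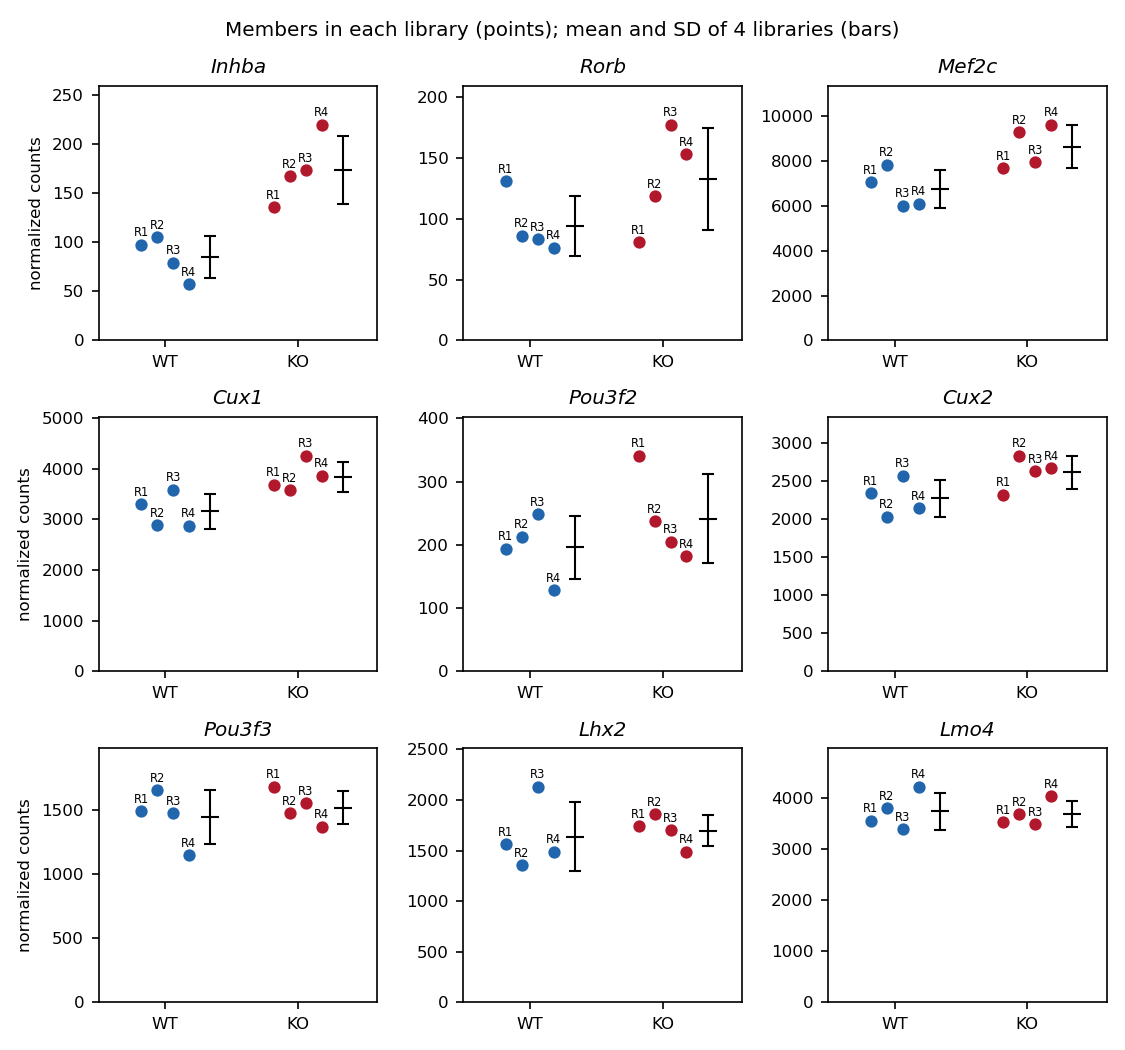
Normalized counts (vertical axes, from 0) of each member in the 4 WT (blue) and 4 KO (red) libraries, each point marked by its library number, with the mean and SD of each genotype as black bars; panels run from the largest to the smallest log2 fold change. Inhba is the panel in which no KO point falls among the WT points, and Lmo4 (KO mean 3676, WT mean 3736) the panel in which the KO mean is the lower.

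A stretch before an annotated transcription start is shown for each of the 3 called members. Counts were per gene, so they do not show which start the counted transcripts came from. RefSeq gives 16 starts for the 9 members. The 250 bases before each were placed in NCBIM37, the assembly behind the mm9 build of the counts. Each was found once on the chromosome and strand of its gene, and other chromosomes were not searched. The sequences below are the RefSeq (GRCm38.p6) windows, 5′ to 3′ on the strand of the gene, with their NCBIM37 positions; capitals mark the motif match in them, and none of the 3 windows overlaps an annotated exon. For Mef2c, which has 3 starts, the window that holds a match to a LIM homeodomain site is given.
Inhba, chr13:16103434-16103683, plus strand: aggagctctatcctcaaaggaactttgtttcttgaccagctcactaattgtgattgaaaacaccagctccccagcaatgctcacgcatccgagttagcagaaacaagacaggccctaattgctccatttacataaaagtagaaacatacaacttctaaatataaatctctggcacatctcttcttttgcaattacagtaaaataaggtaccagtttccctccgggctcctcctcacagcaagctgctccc
Mef2c, chr13:83662405-83662654, plus strand: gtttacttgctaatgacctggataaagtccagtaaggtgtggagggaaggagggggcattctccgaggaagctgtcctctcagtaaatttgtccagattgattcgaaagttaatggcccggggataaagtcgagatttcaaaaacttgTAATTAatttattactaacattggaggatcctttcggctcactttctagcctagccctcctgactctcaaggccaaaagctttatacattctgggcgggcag
Cux1, chr5:137041852-137042101, minus strand: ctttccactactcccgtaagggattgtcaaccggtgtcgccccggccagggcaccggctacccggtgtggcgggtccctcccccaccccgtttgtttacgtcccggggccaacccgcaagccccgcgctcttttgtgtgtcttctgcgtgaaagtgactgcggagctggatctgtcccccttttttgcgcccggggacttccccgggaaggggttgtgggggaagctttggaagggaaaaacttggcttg

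The window of Inhba ends just before the annotated gene, while those of Cux1 and of this Mef2c start lie inside the annotated spans of their genes, between exons. The windows differed in base composition: Cux1 had 62.8% GC and 18 CG dinucleotides, Mef2c 44.8% and 6, and Inhba 43.2% and 3, against a median of 52.4% and 6 over all 32851 RefSeq windows. A set of 7 motifs was searched on both strands, without any overlap between matches. The MEF2 site (CTA and TAG set 4 bases apart, in 3.2% of all windows), the POU octamer ATGCAAAT (1.6%) and the CRE TGACGTCA (1.55%) were in no member's window, and neither was the ROR half-site TAGGTCA (2.23%). The LIM homeodomain site TAATTA (4.84% of all windows) was in the Mef2c window above, 102 bases before the start. The cut homeodomain site ATCGAT (0.728%) was in the window of a Cux2 start, 72 bases before it, and the AP-1 site TGANTCA (6.75%) in a further window each of Mef2c and Rorb. No motif was common to the 3 called members.

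Cux1 and Cux2 are paralogues that mark the upper layers, and both had higher means in KO. Cux1 (chromosome 5 of NCBIM37, 136724005 to 137043301, minus strand) had 3683, 3573, 4255 and 3860 normalized counts in KO R1 to R4 and 3307, 2883, 3586 and 2875 in WT R1 to R4. The genotypes touch at a single point, since KO R2 lay just below WT R3. Means were 3163 ± 347 in WT and 3843 ± 299 in KO libraries (SD, n = 4 each), which differ by 21.6% (95% interval 7.32% to 37.8%). The log2 fold change of Cux1 was 0.28 with a standard error of 0.08, and edgeR gave an unadjusted p of 0.00549 and an adjusted p of 0.467. It remained under an unadjusted p of 0.05 in all 8 fits that left out a library, but its log2 fold change lay at 0.23 without KO R3, at 0.24 without WT R2 and at 0.248 without WT R4, below the study's threshold. Of the exonic bases of Cux1, 394 (5.16%) overlap the antisense lincRNA Gm16599, and the strand setting of the counting was not given in the sources used here, so reads there cannot be assigned with certainty.

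Cux2 (chromosome 5, 122308396 to 122500111, minus strand) showed a smaller difference in the same direction. It had 2319, 2828, 2630 and 2662 normalized counts in the KO libraries and 2339, 2030, 2567 and 2138 in the WT libraries. KO R1 lay at the level of WT R1, and the other 3 KO libraries lay above all WT libraries. From WT at 2268 ± 237 to KO at 2610 ± 212 (SD, n = 4 each), the log2 fold change was 0.20 (standard error 0.08, 95% interval 0.02 to 0.38), with an unadjusted p of 0.0305 and an adjusted p of 0.630 from edgeR. Leaving out a library gave 0.15 to 0.27, and Cux2 met the study's thresholds without KO R1 (0.26) and without WT R3 (0.27). An annotated pseudogene record on the same strand shares 414 exonic bases (5.17%) with Cux2.

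Mef2c (chromosome 13, 83643033 to 83806684, plus strand) was the most counted member. It had 7686, 9291, 7955 and 9607 normalized counts in KO R1 to R4 and 7051, 7832, 6001 and 6096 in WT R1 to R4. KO R1 fell below WT R2, and the other KO libraries lay above every WT library. WT averaged 6745 ± 866 and KO 8635 ± 956 (SD, n = 4 each), higher by 27.9%. The log2 fold change of Mef2c was 0.36 (standard error 0.10, 95% interval 0.14 to 0.57), with an unadjusted p of 0.00429 and an adjusted p of 0.440 from edgeR, or 0.0672 from DESeq2. Leaving out a library gave 0.30 (without KO R4) to 0.44 (without WT R2), and Mef2c was called in all 8 of these fits.

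The other MEF2 genes tested had estimates at or just below 0. Mef2a, a paralogue with the same DNA-binding domain, averaged 1233 ± 33.8 normalized counts in WT and 1157 ± 13.7 in KO libraries (SD, n = 4 each). All KO libraries of Mef2a (1136 to 1166) lay below all WT libraries (1201 to 1279). The share of all genes apart in this direction is not given here, while 2.64% were apart in the other. The log2 fold change of Mef2a, -0.09, did not pass (edgeR, adjusted p = 0.712). Mef2d averaged 800 ± 50.3 and 794 ± 22.0, in that order (SD, n = 4 each). Among the 7 MEF2 genes and class IIa deacetylases tested, the deacetylases being repressors that bind MEF2 proteins, Mef2c was the 1 gene with an unadjusted p under 0.05, the point estimate was lower in KO for 5 and the median log2 fold change was -0.04. Mef2b had too few counts to test.

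Inhba (chromosome 13, 16103684 to 16119044, plus strand) showed the largest relative difference of the members. It had 136, 167, 174 and 220 normalized counts in KO and 97.6, 105, 79.3 and 57.4 in WT. Every KO library lay above every WT library, which held for no other member and for 2.64% of all genes. WT averaged 84.9 ± 21.3 and KO 174 ± 34.7 (SD, n = 4 each), a 2.03-fold difference with a 95% interval of 1.50 to 2.74. The log2 fold change of Inhba was 1.02 (standard error 0.20), its unadjusted p from edgeR was 0.000292, the 22nd smallest of all genes, and 0.370% of genes had a larger positive log2 fold change. The adjusted p was 0.168 with edgeR and 0.000895 with DESeq2. Across the fits that left out a library, the log2 fold change was 0.89 (without KO R4) to 1.14 (without WT R2), the call at the study's thresholds was made in 8 of 8, and the adjusted p ran from 0.113 to 0.541.

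Activins bind type II receptors, which recruit type I receptors that phosphorylate SMAD2 and SMAD3, and follistatin (Fst) captures the ligand. A wider list of activin ligands, antagonists, receptors and SMADs held 15 tested genes, Inhba included. Of these, 4 had an unadjusted p under 0.05 as higher in KO and 1 as lower, and the median log2 fold change was 0.13. Without Inhba the median of the other 14 was 0.05, with 3 higher and 1 lower under that p. Tgfbr1, a type I receptor of the wider TGF-beta family, had 1746, 1308, 2042 and 1941 normalized counts in KO and 1506, 1361, 853 and 772 in WT. Its log2 fold change was 0.64, with a standard error of 0.21. KO R2 lay below WT R1 and R2. Acvr1c, another type I receptor, was low, with 34.6, 35.0, 48.3 and 42.5 normalized counts in KO and 26.7, 30.7, 23.8 and 20.3 in WT. Its log2 fold change was 0.66, with a standard error of 0.22. Smad3, with WT at 200 ± 38.0 and KO at 267 ± 27.4 (SD, n = 4 each), had a log2 fold change of 0.42. For both Acvr1c and Smad3, all KO libraries lay above all WT libraries.

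The gene of the list with an unadjusted p under 0.05 in the other direction was Acvr2a, which encodes a type II receptor for activin. It had 1254, 1849, 1517 and 1373 normalized counts in KO and 1700, 1522, 2305 and 2339 in WT. Its log2 fold change was -0.39, with a standard error of 0.15. Only KO R2 reached into the WT range. The other inhibin and activin subunits did not pass: Inhbb had a log2 fold change of -0.08 and Inha of -0.03. Fst was at 0.24 without passing, and Smad2 and Smad4 were at -0.05 each. None of the 15 had an adjusted p under 0.05 with edgeR (smallest 0.168, Inhba).

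Rorb (chromosome 19, 19005095 to 19185686, minus strand) had the second largest point estimate and the widest scatter. It had 80.7, 119, 177 and 153 normalized counts in KO and 130, 85.9, 83.2 and 76.0 in WT. KO R1 lay among the lower WT libraries and WT R1 among the KO libraries, so the genotypes overlapped. WT averaged 93.9 ± 24.7 and KO 132 ± 41.9 (SD, n = 4 each), and the log2 fold change of Rorb was 0.51 with a 95% interval of -0.03 to 1.04 (edgeR, unadjusted p = 0.0621, adjusted p = 0.677). It met the study's thresholds without KO R1 (0.68) or without WT R1 (0.71) and was at 0.33 without KO R3. Of the 4 tested genes in the list of ROR and layer 4 partners, none had an unadjusted p under 0.05, and Rorb had the smallest. Rora, its paralogue, was low, with means of 21.7 ± 9.04 and 24.2 ± 5.30 normalized counts in WT and KO libraries (SD, n = 4 each).

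The POU class III genes are intronless in the annotation. Pou3f2 (chromosome 4, 22413791 to 22415480, minus strand) had 341, 237, 205 and 182 normalized counts in KO and 194, 213, 248 and 128 in WT. KO R1 was the highest library and WT R4 the lowest, and the other 6 overlapped fully. The log2 fold change of Pou3f2 was 0.27 with a 95% interval of -0.21 to 0.76 (edgeR, adjusted p = 0.827), and it was 0.07 without KO R1. Pou3f3 (chromosome 1, 42753991 to 42757052, plus strand) had 1677, 1472, 1548 and 1367 in KO and 1490, 1649, 1474 and 1147 in WT. WT averaged 1440 ± 211 and KO 1516 ± 131 (SD, n = 4 each), and its log2 fold change was 0.07 with a 95% interval of -0.16 to 0.29 (edgeR, adjusted p = 0.912). Among the 7 tested POU class III genes and the SOX factors that partner with them, 0 had an unadjusted p under 0.05. Sox11, the most counted of these, had a log2 fold change of 0.01, and Pou3f2 had the smallest p.

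Lhx2 (chromosome 2, 38194801 to 38225253, plus strand) had 1742, 1861, 1702 and 1489 normalized counts in KO and 1565, 1358, 2131 and 1491 in WT. Its highest and lowest libraries were both WT. WT averaged 1636 ± 341 and KO 1699 ± 155 (SD, n = 4 each), and the log2 fold change of Lhx2 was 0.05 with a 95% interval of -0.22 to 0.33 (edgeR, adjusted p = 0.951). Without WT R3 it was 0.21 and without WT R2 it was -0.03. Lmo4 (chromosome 3, 143851494 to 143868184, minus strand) was the member with a negative estimate. It had 3518, 3675, 3479 and 4034 in KO and 3552, 3799, 3381 and 4211 in WT, with averages of 3676 ± 253 and 3736 ± 360 in that order (SD, n = 4 each). The log2 fold change of Lmo4 was -0.02 with a 95% interval of -0.19 to 0.142 (edgeR, adjusted p = 0.966). That interval lies below the estimates for Cux1, Mef2c and Inhba but overlaps the intervals of Cux1 (from 0.102) and Mef2c (from 0.137). Members were not tested against each other. Of the 10 tested LIM homeobox, LMO and LIM-binding genes, 0 had an unadjusted p under 0.05 and 8 had negative estimates. Lmo1 had the smallest p of them, with a log2 fold change of -0.31 (edgeR, adjusted p = 0.753).

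**Figure D2:**
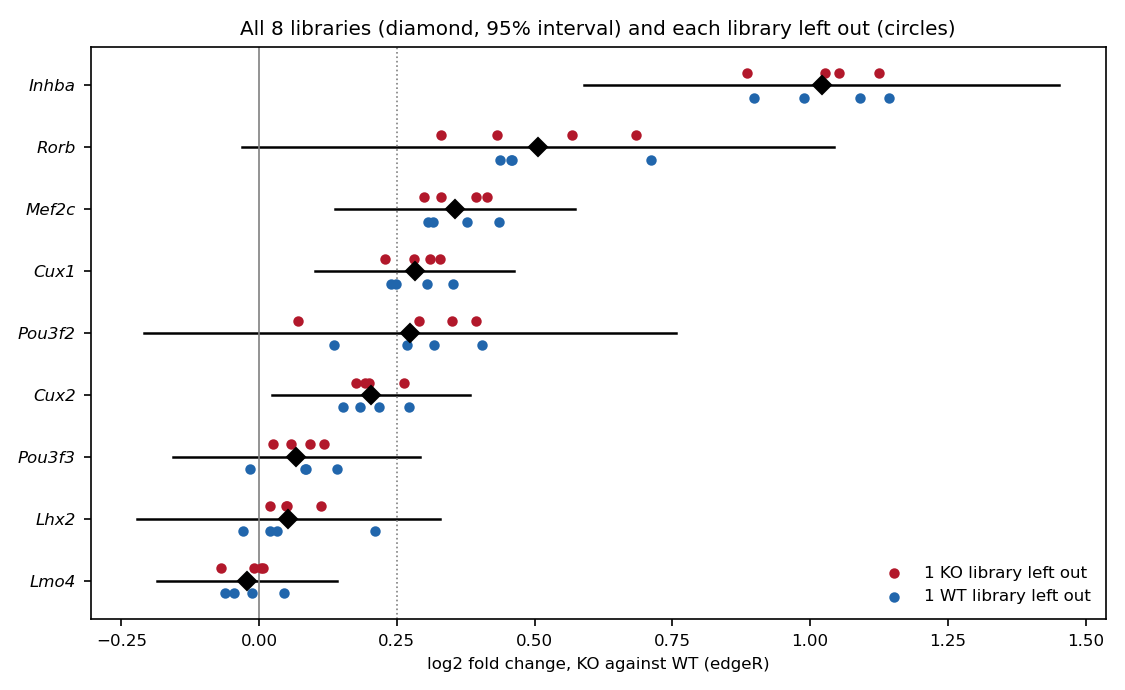
Log2 fold change of KO against WT (horizontal axis) for each member, from edgeR on all 8 libraries (diamond, with its 95% interval as a line) and with 1 KO (red) or 1 WT (blue) library left out (circles); the dotted line marks the study's threshold of 0.25. The intervals of Inhba, Mef2c, Cux1 and Cux2 lie above 0, and the circles of Pou3f3, Lhx2 and Lmo4 fall on both sides of it.

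Levels between genes were compared as RPKM, counts scaled by library size and by kilobases of annotated exon, on exons of GENCODE for NCBIM37. In WT, Lmo4 was highest at 68.6 ± 6.62 RPKM, followed by Mef2c at 55.2 ± 7.09, Lhx2 at 31.8 ± 6.62, Pou3f3 at 28.5 ± 4.17, Cux1 at 25.1 ± 2.75, Cux2 at 17.1 ± 1.79, Pou3f2 at 7.02 ± 1.80, Inhba at 2.59 ± 0.65 and Rorb at 0.513 ± 0.135 (SD, n = 4 each). The WT ranges of Lmo4 and Mef2c overlapped, as did those of Lhx2 and Pou3f3 and of Pou3f3 and Cux1, and the other neighbours in the order were apart. In KO, Mef2c at 70.7 ± 7.82 RPKM stood before Lmo4 at 67.5 ± 4.64 and Cux1 at 30.5 ± 2.37 before Pou3f3 at 30.0 ± 2.58 (SD, n = 4 each), each pair with overlapping ranges. Inhba, at 5.33 ± 1.06 RPKM in KO (SD, n = 4), came to overlap Pou3f2 there. So the member with the largest relative difference was also low per length. The annotated exons differ from those used for the counting, so these levels are approximate.

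The members did not vary as a block between libraries of a genotype. After the genotype means were removed, 19 of 36 pairs of members had a positive Pearson r over the 8 libraries. Pou3f2 and Pou3f3 had 0.83, Mef2c and Inhba 0.80, Cux2 and Lhx2 0.68, Rorb and Inhba 0.65 and Cux1 and Cux2 0.62. Lmo4 ran opposite to Pou3f2 (-0.77), Pou3f3 (-0.72), Lhx2 (-0.69) and Cux1 (-0.67). These values are descriptions over 8 libraries that share a normalization. WT R4 had the lowest value of 5 members (Pou3f2, Pou3f3, Inhba, Rorb and Cux1) and the highest of Lmo4. Averaged over the members, the log2 deviation from the mean of the 8 libraries was 0.08, 0.17, 0.19 and 0.18 in KO R1 to R4 and -0.05, -0.12, -0.08 and -0.37 in WT R1 to R4. Every KO library was therefore above every WT library by this average, with WT R4 far below the others, and without WT R4 the median log2 fold change of the members was 0.18.

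Across the 8 libraries, genes outside the list whose level followed this average closely were Mpped1 (Pearson r = 0.972, Spearman rho = 0.905), Kif26b (0.970 and 0.976), Gpm6a (0.963 and 0.857) and Arl15 (0.960 and 0.929). The average holds the genotype difference, so these genes also differ between genotypes, with log2 fold changes of 0.25, 0.62, 0.42 and 0.38. Gpm6a, a membrane glycoprotein of neurites, was at 25790, 26826, 26721 and 25509 normalized counts in KO and 20698, 20188, 20031 and 17318 in WT, and its adjusted p from edgeR was 0.0400. Kif26b had an adjusted p of 0.0853 from edgeR, and the other 2 were further from the threshold.

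Genes of upper and deep layers outside the list are set beside the members here, with no test between lists. Of 17 other upper-layer and callosal neuron genes tested, 2 had an unadjusted p under 0.05 as higher in KO and 0 as lower, with a median log2 fold change of 0.03. These were Ptn and Pvrl3. Ptn, which encodes the secreted growth factor pleiotrophin, had 15209, 11398, 14035 and 14684 normalized counts in KO and 9702, 8237, 7280 and 9528 in WT, with no overlap, a log2 fold change of 0.67 (standard error 0.11) and an adjusted p of 0.0645 from edgeR. Pvrl3, a cell adhesion gene, was at 0.25. The other 15 had estimates on both sides of 0, among them Plxnd1, a semaphorin receptor of callosal neurons (-0.30), Lpl (-0.23), Unc5d (-0.15), Limch1 (0.15) and Cpne4 (0.16), and were named after their values were seen.

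Deep-layer neuron genes had mostly negative estimates. Of the 12 tested, 6 had an unadjusted p under 0.05 as lower in KO and 1 as higher, with a median log2 fold change of -0.24. Crym, a thyroid hormone-binding protein of corticofugal neurons, had 838, 727, 636 and 717 normalized counts in KO and 1360, 1387, 1180 and 2574 in WT, with a log2 fold change of -1.15 and an adjusted p of 0.123 from edgeR. WT R4 stood far above the other WT libraries. Bcl11b (CTIP2), a factor of subcerebral projection neurons, had 384, 441, 422 and 399 in KO and 511, 478, 525 and 513 in WT, a log2 fold change of -0.30. Fezf2, which specifies those neurons, was at -0.36 with KO R2 above WT R4, and Tle4, a corticothalamic corepressor, at -0.27 with all KO libraries but R3 above WT R4. Zfpm2 and Etv1 were the other lower genes. Foxp2, a corticothalamic factor, was higher, at 217 ± 55.1 in WT libraries and 278 ± 18.7 in KO libraries (SD, n = 4 each), with 0.35 on the log2 scale. Tbr1, the layer 6 factor, was at 0.09 and Sox5 at 0.01, neither passing, and these were named after their values were seen.

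**Figure D3:**
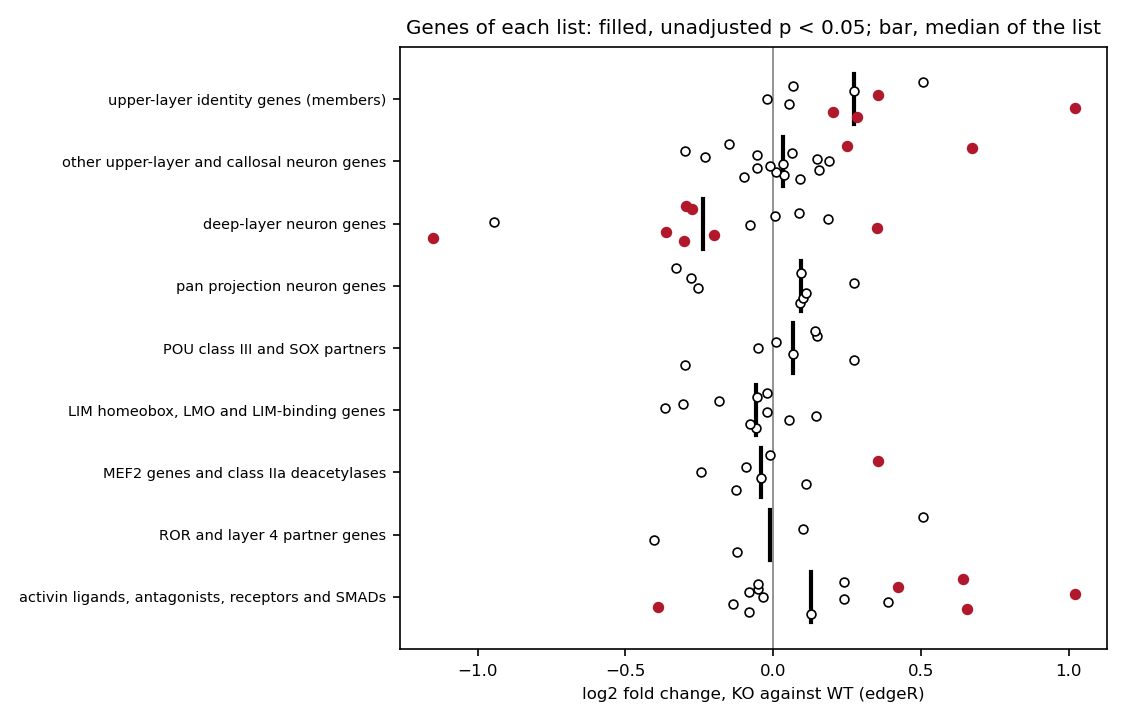
Log2 fold change of KO against WT (horizontal axis) of each tested gene (circles, spread vertically for sight) in the members, the layer lists and the families of the members; filled circles have an unadjusted p under 0.05 and the bar is the median. The median is 0.27 for the members and -0.24 for the deep-layer genes. Mef2c is the filled gene of the MEF2 list, and the activin list holds Tgfbr1, Acvr1c, Smad3 and, on the negative side, Acvr2a as filled genes beside Inhba.

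The levels were also summed over each list in each library, as a description with no test. The members summed to 21183 to 23573 normalized counts in KO and 18220 to 19954 in WT, and on average KO was at 116% of WT. The other upper-layer and callosal genes summed to 32801 to 35331 in KO and 26462 to 30537 in WT, or 118%, and the deep-layer genes to 11189 to 13124 in KO and 13951 to 15033 in WT, or 83.2%. None of these 3 sums overlapped between genotypes, but each rests in part on a single gene. Of the difference between the means of the callosal genes tested, 5372 normalized counts, Ptn alone gave 5145, and without Ptn KO was at 101% of WT with overlapping sums. Without Mef2c, the members tested stood at 110% of WT, with 13497 to 14170 in KO and 12123 to 13550 in WT. Without Crym, the deep-layer genes stood at 88.1%, with 10351 to 12397 in KO and 11807 to 13853 in WT. Each of the 3 sums thus overlapped between genotypes once its gene with the largest difference, found after the values were seen, was left out. The 8 genes shared by projection neurons of all layers summed to 12510 to 14390 in KO and 10015 to 13649 in WT, which overlapped. On average KO was at 113% of WT for this sum. Neurod6, with a log2 fold change of 0.27, made up 67% of it. Of the 8 genes, 0 had an unadjusted p under 0.05. The smallest p among these was that of Slc17a7, a vesicular glutamate transporter, with a log2 fold change of -0.33 (edgeR, adjusted p = 0.652).

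**Figure D4:**
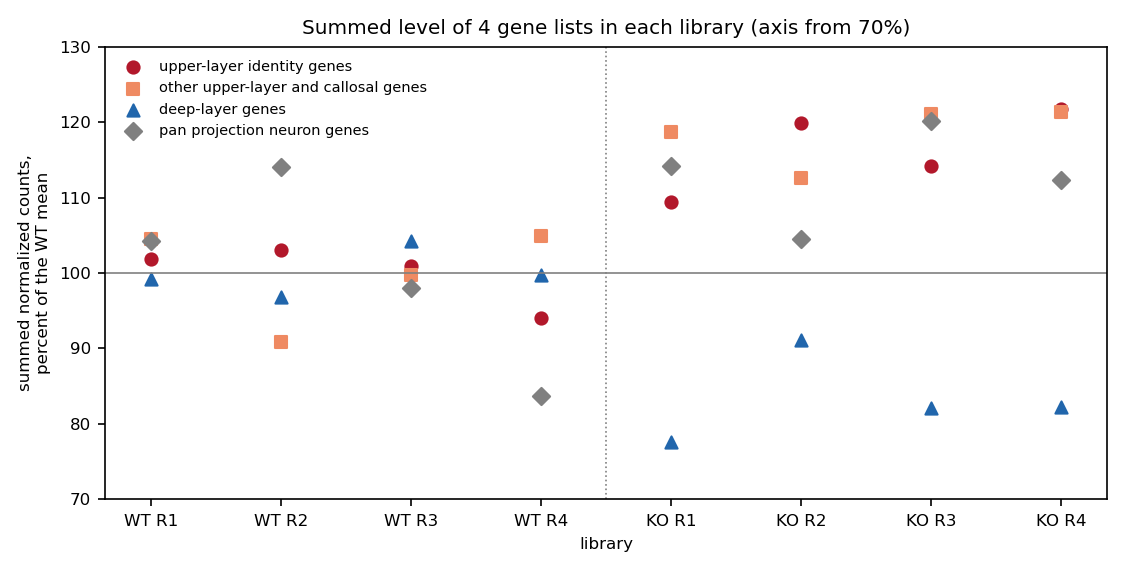
Summed normalized counts of 4 gene lists in each library, as a percent of the mean of the WT libraries (vertical axis, from 70%); the dotted line divides WT from KO. Members (red circles) lie higher in the KO libraries and deep-layer genes (blue triangles) lower, but the genotypes overlap without Mef2c and without Crym in that order. Other upper-layer and callosal genes (orange squares) lie higher through Ptn (101% of WT without it). Pan projection neuron genes (grey diamonds) overlap, with a KO mean at 113% of WT.

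Markers of the other cells of the cortex are given beside these values. Of 11 progenitor genes, 0 had an unadjusted p under 0.05 as higher and 1, the glutamate transporter gene Slc1a3, as lower (-0.30). All 9 interneuron markers had negative estimates, and Gad2, an enzyme of GABA synthesis, had an unadjusted p under 0.05 (-0.25). All 10 microglia markers had positive estimates, none under that p and Trem2 with the smallest (0.44), with a median of 0.30 that was 0.12 without KO R1 and sums of 744 to 1382 in KO and 700 to 995 in WT. All 12 endothelial markers had positive estimates, Cldn5 (0.38) and Emcn (0.62) with an unadjusted p under 0.05, with a median of 0.23 that was 0.10 without KO R1 and sums of 4374 to 6851 in KO and 4213 to 4800 in WT. The part of these cells in the differences of the members was not tested. Without KO R1 the log2 fold changes of Inhba, Mef2c, Cux1, Cux2 and Rorb were 1.12, 0.41, 0.31, 0.26 and 0.68, each larger than with it. Those of Pou3f2, Pou3f3 and Lhx2 were 0.07, 0.025 and 0.048, each smaller than with it. Lmo4 was at 0.006, and the median of the members was 0.26.

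Dissection could also bring in neighbouring regions. The 6 striatal markers tested had positive estimates (median 0.30), with Rarb, a retinoic acid receptor gene, under an unadjusted p of 0.05 (1.02). Drd2 and Isl1, which mark striatal neurons, had too few counts to test. With these included, the striatal sums overlapped at 468 to 782 normalized counts in KO and 340 to 634 in WT. Ppp1r1b, with means of 484 in KO and 351 in WT, gave most of these sums. The median log2 deviation of the 6 tested did not overlap, at 0.03 to 0.55 in KO and -0.54 to -0.01 in WT libraries. The median log2 fold change of the 6 was 0.36 without KO R1. Of 4 hippocampal markers 0 had an unadjusted p under 0.05, with Zbtb20 the nearest (-0.47), and of 3 thalamic markers 0, with Slc6a4 the nearest (-0.58). Of 5 red blood cell markers, Hba-a1 alone had an unadjusted p under 0.05 (2.44), and all 5 meningeal fibroblast markers tested had one, with a median of 2.93 that was 0.40 without KO R1. Their part in the differences of the members was not tested either.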

How the data were processed

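RNA from cortices of 4 Nuak1 KO and 4 WT embryos was sequenced after poly-A selection with a stranded kit. After trimming with cutadapt 1.13 and Prinseq, the authors aligned reads to mm9 in TopHat2 2.0.13, used SAMtools 0.1.19 and HTSeq-count, and deposited the raw count per gene in whole numbers. Reads that HTSeq-count could not assign to a single gene are not in these counts. All 8 columns were used and grouped by genotype.

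The quasi-likelihood test of edgeR 4.0.16 in R 4.3.3, with filterByExpr and TMM, was run over 12699 genes that hold 99.9% of all counts, after a test on simulated data. Alternatives were DESeq2 1.42.0, the tool of the authors, its size factors in edgeR, no filter, at least 10 counts in every library, and each library left out. Deviations per library are on log2(normalized count + 1). The labels name separate embryos, and within a genotype no pair of libraries was as alike as sampling noise (smallest chi-square per degree of freedom 5.73). Precision is limited by 4 libraries per genotype.

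The members and lists were chosen with earlier results of these data known. Named are all members, Nuak1, up to 4 genes per list with the smallest unadjusted p under 0.05 (with none, the gene of smallest p) and genes among the 5 most like the members' average. A related gene is not reported here and was left out of the lists. Other relatives were named after their values were seen.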

Additional observations from a re-analysis of the deposited data

Results flagged for a closer look

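Among 44 groups of 4 libraries examined (each member, and the medians of the members and of the layer and cell type lists, in each genotype), 2 held a library far from the other 3, where chance would give about 2.2. The first was the median log2 deviation of the meningeal fibroblast markers in KO, at 4.15 in KO R1, while KO R2 to R4 lay between -0.55 and -0.09. The second was that of the other upper-layer and callosal neuron genes in WT, at -0.15 in WT R2, while the other 3 WT libraries lay between 0.02 and 0.04. No single member had such a library. The rule sets the gap to the nearest library against the range of the 4, so it does not weigh the size of a departure. In KO R1 the fibroblast markers summed to 10374 normalized counts, against 282 to 512 elsewhere. The values of the members without KO R1 are given with the results.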

How the results depend on the processing

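The columns carry no litter or embryo number. No paired analysis was possible because the column names do not tie libraries to litters, and the planned replicate block by litter was not run. The number of members called at the thresholds of the study was 3 with all 8 libraries and lay between 2 and 5 when a library was left out, the highest without KO R1 and the lowest without KO R3, WT R2 or WT R4. The number past an adjusted p of 0.05 was 0 with edgeR in all fits and 1 with DESeq2, for Inhba (log2 fold change 1.03), whose adjusted p ran from 0.000895 to 0.541 over all alternatives. Over all genes, 9 passed that adjusted p with edgeR, 70 with DESeq2 and 2 to 11 without a library, and 540 met the thresholds of the study with all libraries, 426 to 847 without a library (847 without WT R4). The median log2 fold change of the members stayed positive, from 0.18 (without WT R4) to 0.31 (without WT R3). A sign change was seen for members with estimates near 0: leaving out a library gave -0.017 (without WT R4) to 0.14 for Pou3f3, -0.029 (without WT R2) to 0.21 for Lhx2, and -0.070 to 0.045 (without WT R4, positive also without KO R1 or R3) for Lmo4. The cause was not tested. The other 102 values of single members under these alternatives kept their direction and their side of an adjusted p of 0.05, while Cux1, Cux2 and Rorb crossed the thresholds of the study in some of these fits. With 4 libraries per genotype, intervals of Rorb and Pou3f2, the least counted members beside Inhba, reach from below 0 to beyond 0.7 on the log2 scale.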

Other observations

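The members differ in the length of the gene on the chromosome. Cux1, Cux2, Rorb and Mef2c span over 150 kb, as do 8.91% of the genes tested, and Pou3f2, Pou3f3, Lhx2, Inhba and Lmo4 span under 50 kb. Among all tested genes over 150 kb, 5.48% were called higher in KO at the thresholds of the study, against 2.06% of those under 50 kb, with medians of -0.02 and -0.01 on the log2 scale. The part of gene length in the differences of the members was not tested.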
